A study of Homo sapiens with 24 samples.

Results

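The genes of the G2/M transition and of mitosis were followed in Huh7.5.1, a line of human hepatoma cells widely used to grow hepatitis C virus. The list named 36 genes that act between the end of DNA replication and the separation of the daughter cells, and it was set by their function. The array measured 35 of them, out of 18274 genes with a probe set of their own. CENPA, the histone that marks centromeres, lay on a probe set assigned to several genes and was not analysed here. Each of the 35 had a single probe set assigned to it alone, so no choice between probe sets was needed, and all 35 entered every test. The probe set of each gene is given in parentheses where its values are printed.

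The cells received silymarin, a milk thistle extract, or the solvent DMSO alone, and total RNA was taken after 4, 8 or 24 h. All samples came from 1 cell line, and their titles mark them as novirus. There were 4 arrays each of DMSO and silymarin at 4 h, 5 of DMSO and 3 of silymarin at 8 h, and 5 of DMSO and 3 of silymarin at 24 h, each an Affymetrix Human Gene 1.0 ST array of a separate sample. The silymarin dose is not in the labels, and no label says that replicates were separate cultures. P-values therefore measure the spread between these samples, which may be technical, and the number of arrays limits the precision. Values are log2 intensities, so a difference of 1 is a doubling.

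Cells enter mitosis when cyclin B binds the kinase CDK1 and the phosphatase CDC25C removes the phosphates that hold the kinase inactive. The duplicated chromosomes are then compacted and attached through their kinetochores to the microtubules of the spindle. A checkpoint delays anaphase until every kinetochore is attached, after which CDC20 activates the anaphase promoting complex, the ubiquitin ligase that destroys securin and the cyclins. The transcripts of most of these proteins are made late in the cell cycle, under the MuvB, MYBL2 and FOXM1 factors that act at CHR elements of the promoters. A tumour line that divides continuously holds cells in every phase, so a bulk RNA level of these genes joins the share of cells near mitosis with the RNA in each such cell. Fewer cells of that kind and less RNA per cell cannot be told apart here.

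The array medians lay between 7.04 and 7.18. Of the hepatocyte lineage markers, 9 of 10 were measured, and their mean lay between 12.34 and 12.46 on every array. The stress gene DDIT4, an inhibitor of mTOR signalling, fell into separate ranges, and every labelled group had arrays in both. DDIT4 was between 9.67 and 10.34 on 10 arrays and between 7.5 and 8.35 on 14, with no array between 8.5 and 9.5. The 10 arrays above 9.0 were 2 of 4 DMSO arrays at 4 h, 1 of 4 silymarin arrays at 4 h, 3 of 5 DMSO and 2 of 3 silymarin arrays at 8 h, and 1 of 5 DMSO and 1 of 3 silymarin arrays at 24 h. Where 1 labelled group is compared with another, the median of the mitotic genes is therefore given with all arrays and again with the 14 arrays below 9.0.

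The 35 genes varied together from array to array, and arrays with the same label differed widely. For each gene, the deviation of an array from the gene's own mean over 24 arrays was taken, and the deviations were averaged over the 35 genes. The average ran from -0.39 in silymarin replicate 3 at 8 h to 0.27 in silymarin replicate 3 at 4 h, a range of 0.66 or 1.57-fold. On 9 arrays every gene lay on the same side of its own mean, above it on 5 and below it on 4. Silymarin replicate 3 at 8 h was the lowest array for 19 of the 35 genes, and silymarin replicate 3 at 4 h the highest for 15. For 33 genes the lowest array was among the 4 arrays with the lowest average.

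Among the arrays at 4 h, the average deviation was -0.01, 0.16, 0.23 and -0.17 in DMSO replicates 1 to 4. In silymarin at 4 h it was -0.05, 0.10, 0.27 and 0.07. DMSO replicate 4 and silymarin replicate 1 lay low and the third replicate of both groups lay high, so the groups overlapped over most of their range. After 8 h the DMSO arrays had 0.02, -0.01, -0.01, -0.31 and -0.19, and the silymarin arrays -0.10, -0.07 and -0.39. No silymarin array at 8 h was above 0, and DMSO replicates 4 and 5 were lower than silymarin replicates 1 and 2. After 24 h the DMSO arrays had 0.16, 0.03, 0.06, 0.24 and 0.09, and the silymarin arrays -0.30, -0.002 and 0.16. All 5 DMSO arrays at 24 h were above 0, while the silymarin arrays covered most of the range seen over the whole series.

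**Figure D1:**
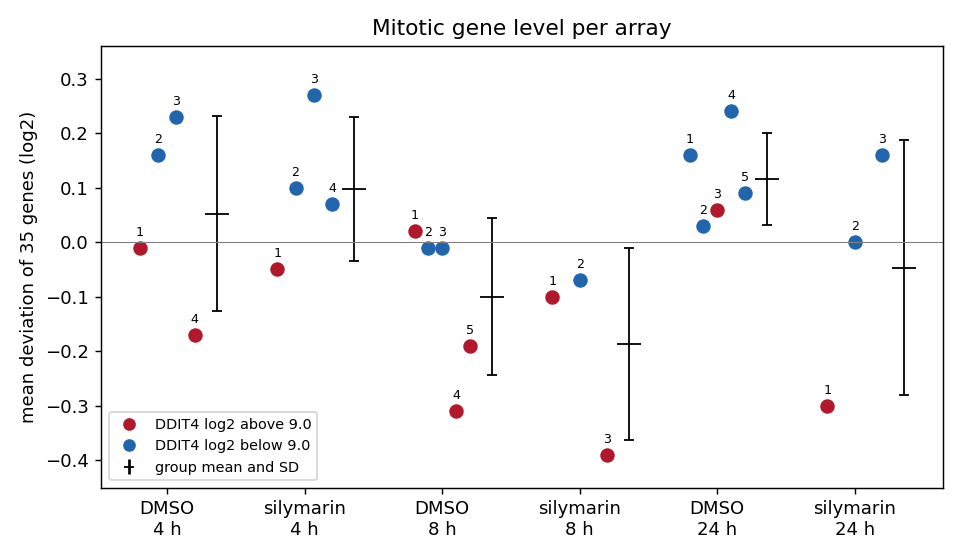
Average deviation of the 35 mitotic genes from their own means over 24 arrays (log2, vertical axis) for each array of the 6 labelled groups (horizontal axis, replicate number above each point). Red points are arrays with DDIT4 above 9.0 and blue points arrays below it, and the bars give the group mean and SD. The group means lie between -0.18 and 0.12, while single arrays run from -0.39 to 0.27.

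As means and SDs, the average deviation was 0.05 ± 0.18 (SD, n = 4) in DMSO and 0.10 ± 0.13 (SD, n = 4) in silymarin at 4 h. It was -0.10 ± 0.14 (SD, n = 5) and -0.18 ± 0.18 (SD, n = 3) at 8 h, and 0.12 ± 0.08 (SD, n = 5) and -0.05 ± 0.23 (SD, n = 3) at 24 h. The pooled SD within groups was 0.154. The 6 groups took up 39.1% of the sum of squares of this average with 5 degrees of freedom. Time point alone took up 29.6% with 2 degrees of freedom and the silymarin label alone 2.2% with 1. The side of DDIT4 took up 49.7% with 1, as a description, since these sets of arrays were defined from a measured gene. DDIT4 was above 9.0 on 3 arrays at 4 h, 5 at 8 h and 2 at 24 h, so the shares of time and of DDIT4 side overlap.

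A single pattern carried most of the variation among the 35 genes. The first principal component held 81.0% of their variance, against 25.8% for all 18274 genes over the same 24 arrays. It held 76.3% after the group means were removed, 70.1% among the 14 arrays with low DDIT4 and 78.0% among the 10 with high DDIT4. All 595 pairs of genes had a correlation above 0 over the 24 arrays, with a median r of 0.81 and a range of 0.26 to 0.96. Within the 14 arrays the median r was 0.67, with 587 of 595 pairs above 0 and a lowest r of -0.29. Within the 10 it was 0.79, with 594 of 595 pairs above 0 and a lowest r of -0.02. The genes of a pair share every array and its normalization, so these values describe the data and carry no test.

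**Figure D2:**
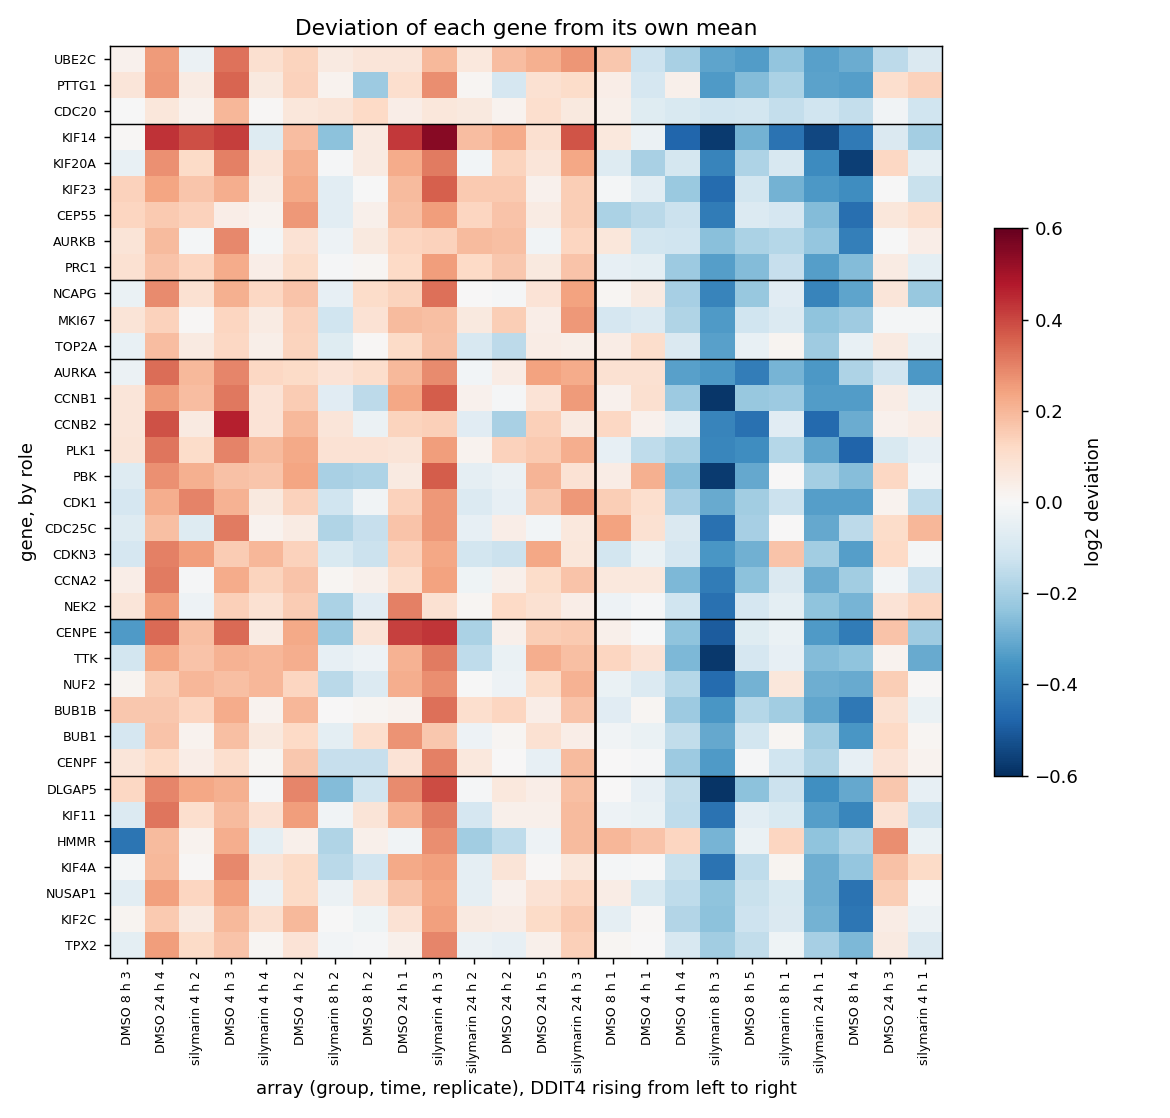
Deviation of each of the 35 genes (rows, grouped by role) from its own mean over 24 arrays, as a log2 colour scale, with the arrays (columns) ordered by DDIT4 from low on the left to high on the right. The vertical line stands at DDIT4 9.0. Whole columns are red or blue together, and the darkest blue columns, silymarin 8 h replicate 3, silymarin 24 h replicate 1 and DMSO 8 h replicate 4, lie to the right of the line.

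The kinases and cyclins of mitotic entry formed the largest role, with 10 measured genes whose SD over 24 arrays ran from 0.17 for NEK2 to 0.24 for AURKA. CDK1 (7927710), the kinase that drives mitotic entry, had the following log2 values in replicate order. At 4 h they were 10.20, 10.24, 10.31 and 9.90 in DMSO and 9.95, 10.40, 10.36 and 10.16 in silymarin. At 8 h they were 10.25, 10.08, 10, 9.77 and 9.89 in DMSO and 9.97, 9.98 and 9.80 in silymarin. At 24 h they were 10.24, 10.05, 10.12, 10.32 and 10.26 in DMSO and 9.77, 10.02 and 10.36 in silymarin. The lowest value, 9.77, came from DMSO replicate 4 at 8 h and from silymarin replicate 1 at 24 h, and silymarin and DMSO overlapped at each time. CDK1 spanned 0.63 in all, or 1.55-fold.

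Cyclin B1, the partner that activates CDK1, is encoded by CCNB1 (8105828). Its values at 4 h were 10.48, 10.54, 10.70 and 10.17 in DMSO and 10.34, 10.57, 10.75 and 10.47 in silymarin. After 8 h they were 10.41, 10.23, 10.46, 10.05 and 10.16 in DMSO and 10.17, 10.32 and 9.80 in silymarin. After 24 h they were 10.62, 10.38, 10.43, 10.64 and 10.47 in DMSO and 10.05, 10.41 and 10.64 in silymarin. The lowest array was silymarin replicate 3 at 8 h and the highest silymarin replicate 3 at 4 h, and the groups overlapped at each time. The range was 0.94, or 1.92-fold, and CCNB1 followed the mean of the other 34 genes with r = 0.96 (24 arrays) and a slope of 1.30.

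PLK1 (7994109) is the polo-like kinase that acts in entry, spindle assembly and exit from mitosis. At 4 h it measured 11.53, 11.91, 11.98 and 11.49 in DMSO and 11.63, 11.79, 11.93 and 11.87 in silymarin. By 8 h the values were 11.63, 11.77, 11.76, 11.20 and 11.31 in DMSO and 11.51, 11.77 and 11.29 in silymarin. By 24 h they were 11.76, 11.82, 11.59, 12.00 and 11.84 in DMSO and 11.37, 11.70 and 11.90 in silymarin. DMSO replicates 4 and 5 at 8 h and silymarin replicate 3 at 8 h were the lowest, DMSO replicate 4 at 24 h was the highest, and silymarin and DMSO overlapped at each time. The range was 0.80, or 1.74-fold. AURKA, the centrosomal kinase that activates PLK1, ran from 10.54 to 11.29 with a median of 11.04. The remaining genes of this role (CCNA2, CCNB2, CDC25C, NEK2, CDKN3 and PBK) had SDs between 0.17 and 0.23.

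Kinetochore and spindle checkpoint genes, 6 of them measured, had SDs from 0.14 for CENPF to 0.26 for CENPE. CENPE (8102076) is the kinesin that carries chromosomes towards the spindle equator. Values of CENPE at 4 h were 9.26, 9.49, 9.60 and 9.02 in DMSO and 9.05, 9.44, 9.69 and 9.31 in silymarin. The 8 h values were 9.29, 9.34, 8.92, 8.84 and 9.19 in DMSO and 9.22, 9.04 and 8.76 in silymarin. The 24 h values were 9.67, 9.29, 9.43, 9.60 and 9.41 in DMSO and 8.92, 9.07 and 9.42 in silymarin. Silymarin replicate 3 at 8 h was lowest and silymarin replicate 3 at 4 h highest, and the groups overlapped at each time, although silymarin replicates 1 and 2 at 24 h were below every DMSO array. DMSO replicate 3 at 8 h had 8.92, which is 0.33 below the value that the other genes on that array predict from a straight line. The checkpoint genes BUB1, BUB1B and TTK, and NUF2, a subunit of the NDC80 complex that grips microtubules, had SDs of 0.15, 0.19, 0.22 and 0.20.

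Spindle motors and microtubule-associated proteins made up 7 genes. DLGAP5 (7979307), which stabilises the microtubules that pull on kinetochores, had the largest SD of them, 0.24. At 4 h DLGAP5 was 10.22, 10.56, 10.48 and 10.12 in DMSO and 10.22, 10.50, 10.66 and 10.26 in silymarin. At 8 h DLGAP5 was 10.27, 10.15, 10.39, 9.96 and 10.02 in DMSO and 10.14, 10.01 and 9.68 in silymarin. At 24 h DLGAP5 was 10.55, 10.33, 10.43, 10.56 and 10.31 in DMSO and 9.90, 10.26 and 10.45 in silymarin. Its lowest and highest arrays were those of CENPE, and the groups overlapped at each time. KIF11, the motor that pushes the spindle poles apart, KIF2C, which takes microtubules apart, KIF4A, a chromosome-bound motor, NUSAP1 and TPX2 had SDs of 0.20, 0.16, 0.18, 0.17 and 0.14.

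HMMR (8109712), a spindle and hyaluronan-binding protein, had the lowest correlation with the other genes over all arrays, with r = 0.54 over 24 arrays against more than 0.8 for all genes except HMMR and CDC20. In the 4 h arrays it was 9.04, 8.90, 9.09 and 9.0 in DMSO and 8.83, 8.89, 9.15 and 8.81 in silymarin. In the 8 h arrays it was 9.07, 8.90, 8.43, 8.69 and 8.83 in DMSO and 9.0, 8.69 and 8.59 in silymarin. In the 24 h arrays it was 8.85, 8.72, 9.15, 9.06 and 8.84 in DMSO and 8.63, 8.66 and 9.06 in silymarin. The array farthest from the common pattern was DMSO replicate 3 at 8 h, which lay 0.44 below it, while DMSO replicate 3 at 24 h shared the highest value, 9.15, with silymarin replicate 3 at 4 h. Within the sides of DDIT4 its r was higher, 0.82 on the 14 arrays below 9.0 and 0.91 on the 10 above. The lowest r within a side was 0.29 for CDC20 below 9.0, where CDC20 had 0.69 above, and 0.59 for AURKA above 9.0, where AURKA had 0.83 below.

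Central spindle and cytokinesis genes, 6 in number, included the most variable gene of all 35. KIF14 (7923189) is a kinesin that helps to cut the bridge between daughter cells. Its level at 4 h was 9.31, 9.53, 9.76 and 8.87 in DMSO and 9.14, 9.73, 9.89 and 9.27 in silymarin. Its level at 8 h was 9.41, 9.40, 9.35, 8.92 and 9.06 in DMSO and 8.90, 9.10 and 8.77 in silymarin. Its level at 24 h was 9.77, 9.57, 9.26, 9.78 and 9.44 in DMSO and 8.80, 9.53 and 9.72 in silymarin. Silymarin replicate 3 at 8 h was lowest and silymarin replicate 3 at 4 h highest, a range of 1.12 or 2.18-fold, and silymarin and DMSO overlapped at each time. KIF14 moved by 1.84 for each 1 of the mean of the other 34 genes. The SDs of KIF20A, KIF23, PRC1, AURKB and CEP55, which build the midzone between the separating chromosomes and the site of abscission, lay between 0.17 and 0.23.

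Chromosome structure was represented by 3 genes, and it included the genes most used as proliferation markers. TOP2A (8014974), the topoisomerase that untangles sister chromatids, had an SD of 0.12. The 4 h arrays gave 11.97, 12.00, 11.99 and 11.78 in DMSO and 11.82, 11.92, 12.04 and 11.90 in silymarin. The 8 h arrays gave 11.91, 11.87, 11.82, 11.82 and 11.82 in DMSO and 11.88, 11.79 and 11.54 in silymarin. The 24 h arrays gave 11.98, 11.71, 11.92, 12.05 and 11.91 in DMSO and 11.65, 11.77 and 11.90 in silymarin. Silymarin replicate 3 at 8 h stood below all the others at 11.54, and the range was 0.52 or 1.43-fold. NCAPG, a condensin subunit, had an SD of 0.20.

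MKI67 (7937020) encodes the Ki-67 antigen, which coats mitotic chromosomes. Ki-67 RNA at 4 h was 11.02, 11.24, 11.23 and 10.92 in DMSO and 11.09, 11.11, 11.28 and 11.15 in silymarin. Ki-67 RNA at 8 h was 11.00, 11.19, 11.18, 10.89 and 10.98 in DMSO and 11.02, 10.98 and 10.76 in silymarin. Ki-67 RNA at 24 h was 11.29, 11.25, 11.09, 11.24 and 11.14 in DMSO and 10.86, 11.16 and 11.36 in silymarin. The lowest and the highest array were both silymarin, replicate 3 at 8 h and replicate 3 at 24 h, and the groups overlapped at each time. The range was 0.60, or 1.51-fold.

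Anaphase proteolysis was covered by 3 genes, among them the least variable of the list. CDC20 (7900699), the activator of the anaphase promoting complex, had an SD of 0.09 and a slope of 0.41 on the other genes. CDC20 was measured at 4 h as 11.99, 12.13, 12.26 and 11.97 in DMSO and 11.94, 12.08, 12.13 and 12.07 in silymarin. CDC20 was measured at 8 h as 12.09, 12.18, 12.06, 11.92 and 11.95 in DMSO and 11.92, 12.14 and 11.94 in silymarin. CDC20 was measured at 24 h as 12.10, 12.08, 12.04, 12.13 and 12.16 in DMSO and 11.94, 12.12 and 12.12 in silymarin. Its range was 0.34, or 1.27-fold, with r = 0.78 against the mean of the others. UBE2C, the ubiquitin-conjugating enzyme of that complex, had an SD of 0.21, and PTTG1, which encodes securin, 0.19. The median SD was 0.19 for the 35 genes and 0.13 for all genes, and 33 of the 35 exceeded 0.13 before rounding, all but TOP2A and CDC20.

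**Figure D3:**
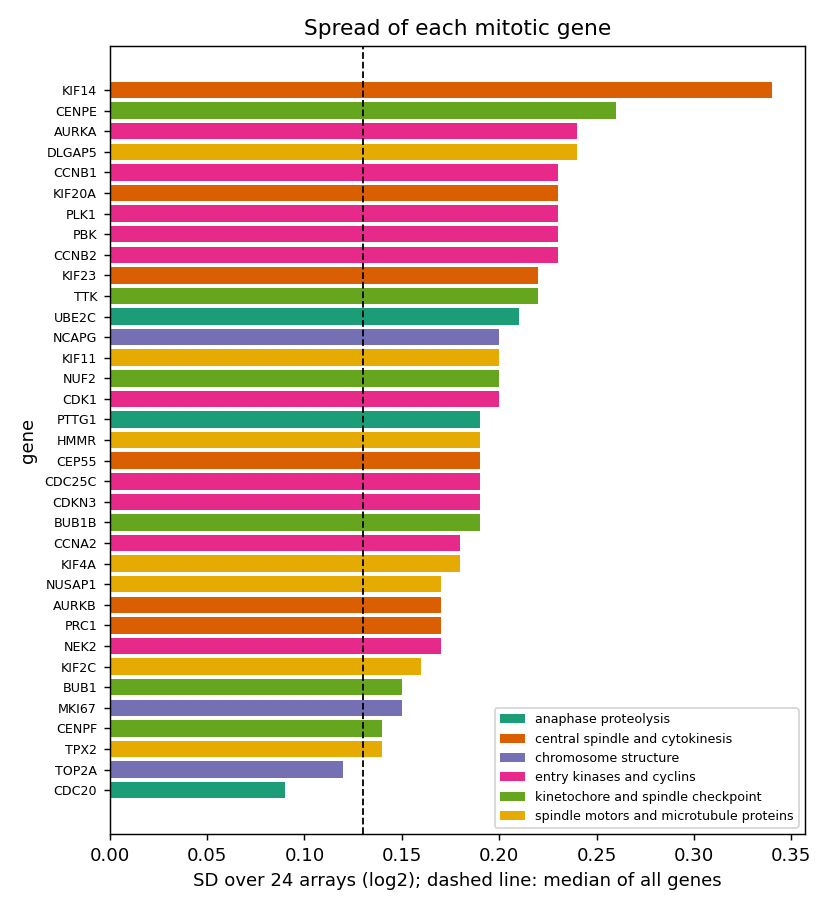
SD over 24 arrays (log2, horizontal axis) of each of the 35 genes (vertical axis), coloured by role, with a dashed line at the median of all 18274 genes, 0.13. KIF14 stands apart at 0.34, and TOP2A and CDC20 are the genes below the line.

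The promoters of these genes were read for the letters that the late cell cycle factors are known to bind. Of the 36 listed genes, 31 had an entry in the RefSeq promoter table (build GRCh38.p14), which covers 250 bases before to 50 after the start of 27305 genes. The others were AURKA, PBK, TTK, TPX2 and UBE2C. The motifs searched on both strands were TTTGAA or TTCGAA for CHR, CCAAT, and TTTGGCGC, TTTCCCGC or TTTCGCGC for E2F. A CHR was found in 74.2% of the 31 genes and in 19.5% of all genes. CCAAT, the box bound by NF-Y, was found in 83.9% against 39.7%, at least 2 CCAAT boxes in 54.8% against 12.9%, and an E2F motif in 9.68% against 3.3%. Both a CHR and a CCAAT were held by 20 of 31, or 64.5%, against 7.85% of all genes. Before the start alone, a CHR was in 58.1% against 17.2%, and both in 51.6% against 6.24%. Matches that overlap were counted for each motif, and a gene with several starts was counted if any of them matched. A match is a description of letters, not a bound site.

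Both motifs lay before the start in 15 measured genes. The stretch that spans them is shown for the 5 of these with the largest SD over the arrays, 5′ to 3′ in the direction of the gene, with CHR and CCAAT letters of either strand in capitals. DLGAP5 lies at chr14:55191595-55191731 on the minus strand, CCNB2, which encodes cyclin B2, at chr15:59104896-59105130 on the plus strand, and PLK1 at chr16:23678808-23678873 on the plus strand. KIF23 lies at chr15:69414277-69414307 on the plus strand and KIF11 at chr10:92593069-92593115 on the plus strand.
DLGAP5: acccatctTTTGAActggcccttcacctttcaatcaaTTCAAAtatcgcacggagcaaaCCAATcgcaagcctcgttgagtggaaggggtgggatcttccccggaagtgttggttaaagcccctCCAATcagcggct
CCNB2: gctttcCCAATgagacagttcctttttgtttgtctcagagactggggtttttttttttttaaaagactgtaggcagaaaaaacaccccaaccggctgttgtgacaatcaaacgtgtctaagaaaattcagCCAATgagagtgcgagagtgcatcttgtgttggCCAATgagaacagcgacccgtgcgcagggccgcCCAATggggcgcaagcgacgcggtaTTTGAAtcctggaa
PLK1: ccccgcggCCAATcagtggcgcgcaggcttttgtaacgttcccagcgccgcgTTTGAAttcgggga
KIF23: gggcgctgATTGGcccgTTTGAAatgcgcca
KIF11: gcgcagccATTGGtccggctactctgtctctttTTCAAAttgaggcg
The CCNB2 stretch holds 4 CCAAT boxes before a single CHR, DLGAP5 holds 2 of each, and the other genes hold 1 of each.

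The comparison at 4 h addressed the early response to silymarin. Mitotic genes had slightly higher means in silymarin, and no gene passed limma's test at an adjusted p of 0.05. The background was 0.0% of all genes, and at an unadjusted p under 0.05 it was 2.48%, against 0 of the 35 genes. The median log2 difference was 0.04, and 31 of 35 genes lay above 0, where 52.5% of all genes lay below. NUF2 had the smallest p, with a difference of 0.16 (SE 0.11, 95% interval -0.07 to 0.39, limma adjusted p = 0.99993). CDKN3, a phosphatase of CDK1, differed by 0.13, CEP55, a protein of the abscission site, by 0.12, and CENPF, a kinetochore protein, by 0.08.

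The direction at 4 h differed when single arrays were left out. Without DMSO replicate 4 the median was -0.03 and 6 genes lay above 0, and without silymarin replicate 3 there were 12. With the arrays of low DDIT4 alone, 2 of DMSO and 3 of silymarin, the median was -0.05 with 6 genes above 0. Of 284 genes whose silymarin arrays all lay below DMSO (1.55%) and 115 above (0.629%), none was a mitotic gene.

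After 8 h the mitotic genes had lower means in silymarin, none past the test. The median difference was -0.09, with 3 of 35 above 0 and 58.0% of all genes below 0. No mitotic gene had an unadjusted p under 0.05, against 3.93% of all genes, and 0.0% of all genes passed the adjusted test. CENPF had the smallest p, with log2 values of 10.88 to 11.09 in DMSO and 10.68 to 10.90 in silymarin and a difference of -0.18 (SE 0.09, limma adjusted p = 0.9914). NEK2, a centrosomal kinase, differed by -0.15 (SE 0.09) and DLGAP5 by -0.21 (SE 0.13). KIF14 had the largest difference, -0.30, with a 95% interval of -0.73 to 0.12. Groups overlapped for all 35 genes, where 1.99% of all genes had every silymarin array below DMSO and 0.947% above.

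The direction at 8 h rested on silymarin replicate 3. Without it the median was 0.02 with 20 genes above 0, and across the other single arrays left out the lowest median was -0.14. With low DDIT4 alone, 2 DMSO arrays and 1 silymarin array remained, the lone array being assumed to vary like the other groups, and the median was -0.06 with 10 genes above 0.

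At 24 h every mitotic gene had the lower mean in silymarin. The median difference was -0.16, and the 35 differences ran from -0.34 to -0.03, where 44.0% of all genes lay below 0. An unadjusted p under 0.05 was found for 4 of 35 genes, against 3.03% of all genes, and none passed the adjusted test, as for 0.0% of all genes. NEK2 (7924096) was 10.20, 10.02, 9.98, 10.15 and 9.99 in DMSO and 9.66, 9.91 and 9.94 in silymarin. It was the 1 gene of 35 whose silymarin arrays all lay below DMSO, which held for 0.772% of all genes, although 9.94 and 9.98 nearly meet. Its difference was -0.24 (SE 0.09, limma adjusted p = 0.99971). None of the 35 had all silymarin arrays above DMSO, against 1.18% of all genes.

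KIF4A differed by -0.23 (SE 0.10), CENPE by -0.34 (SE 0.15) and BUB1, the checkpoint kinase, by -0.20 (SE 0.09), all with limma's adjusted p = 0.99971. By role, the median difference was -0.21 for spindle motors, -0.18 for entry kinases, -0.17 for kinetochore genes, -0.14 for chromosome structure, -0.13 for cytokinesis and -0.11 for anaphase proteolysis. CENPF, at -0.03 (95% interval -0.21 to 0.16), and CDC20, at -0.04 (-0.20 to 0.11), differed least. Without silymarin replicate 1 the median was -0.03 with 14 genes above 0, and NEK2 differed by -0.15. With low DDIT4 alone, 4 DMSO and 2 silymarin arrays, the median was -0.03 with 9 genes above 0. Endothelial markers lay the other way in this comparison, with 5 of 5 above 0, a median of 0.12 and 2 at an unadjusted p under 0.05, TEK, an angiopoietin receptor (0.30, SE 0.10), and VWF, a clotting factor (0.19, SE 0.09), both with limma's adjusted p = 0.99971. The mean of the endothelial list was 5.66 to 6.04 in DMSO and 5.92 to 6.13 in silymarin, below every array median (7.04 to 7.18). Above 0 lay 5 of 7 fibroblast, 4 of 9 hepatocyte and 2 of 5 leukocyte markers, none of them at an unadjusted p under 0.05. The part of the markers in the mitotic difference was not tested.

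**Figure D4:**
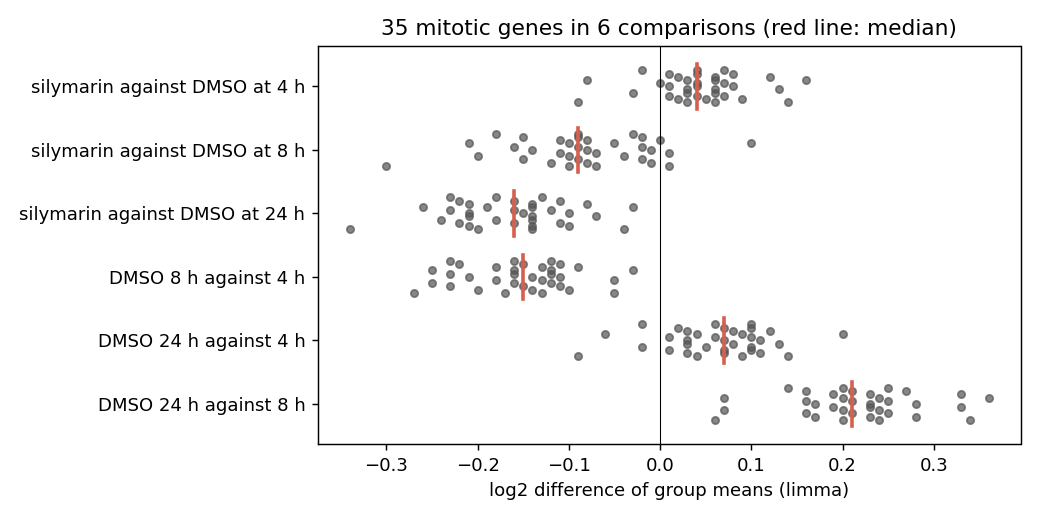
Log2 differences of group means from the limma fit (horizontal axis) for the 35 genes (points) in 6 comparisons (rows), with the median of each as a red line. All 35 points lie below 0 for silymarin against DMSO at 24 h and for DMSO 8 h against 4 h, and all above 0 for DMSO 24 h against 8 h.

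The DMSO groups show the time course of the cells without silymarin. These comparisons share arrays with one another and with those above. From 4 to 8 h all 35 genes had the lower mean at 8 h, with a median of -0.15, and 46.5% of all genes lay below 0. An unadjusted p under 0.05 was reached by 3 of 35, CDKN3 at -0.23, PTTG1 at -0.25 and PBK, a mitotic kinase, at -0.25, against 6.5% of all genes. None passed the adjusted test (limma, smallest adjusted p = 0.7393, background 0.0%). CCNB2 differed by -0.27. The median was -0.18 with low DDIT4 alone, 2 arrays a group, and all 35 genes stayed below 0. Leaving out the fourth DMSO replicate gave -0.09 where it was the one at 8 h and -0.23 where it was the one at 4 h. No gene was lower, or higher, in all arrays at 8 h than in all at 4 h, against 0.826% and 1.41% of all genes.

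From 8 to 24 h in DMSO all 35 genes had the higher mean at 24 h, with a median of 0.21, where 50.9% of all genes lay below 0. In this comparison 17 of 35 genes had an unadjusted p under 0.05, against 10.9% of all genes. None passed the adjusted test, as for 0.0% of all genes. The first principal component of the 35 genes held 76.3% after the group means were removed. Counts of these genes, here and in the other comparisons, are therefore not counts of independent results. CDKN3 (7974404) was 10.42, 10.40, 10.43, 10.20 and 10.24 at 8 h and 10.67, 10.40, 10.65, 10.83 and 10.76 at 24 h, higher in 4 of 5 arrays at 24 h than in any at 8 h. Its difference was 0.33 (SE 0.09, limma adjusted p = 0.42852). NEK2 was 9.87, 9.83, 9.97, 9.62 and 9.80 at 8 h and thus below all 5 arrays at 24 h, a difference of 0.25 (SE 0.08, limma adjusted p = 0.42852). BUB1 differed by 0.23 and KIF4A by 0.24 with that same adjusted p.

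Every 24 h array lay above every 8 h array for 4 of 35 genes, NEK2, KIF2C, KIF4A and KIF20A, a midzone kinesin, against 0.925% of all genes, and the reverse held for none, against 0.706%. The highest 8 h and lowest 24 h values nearly meet, at 9.97 and 9.98 for NEK2 and 9.83 and 9.86 for KIF2C. For KIF4A they were 9.67 and 9.69, and for KIF20A 10.79 and 10.81. KIF20A (8108301) was 10.66, 10.79, 10.69, 10.17 and 10.55 at 8 h and 10.96, 10.87, 10.86, 11.01 and 10.81 at 24 h, where DMSO replicate 4 at 8 h is far below the rest. CDC20, at 0.06, and TOP2A, at 0.07, differed least, and CENPE, at 0.36 (95% interval 0.09 to 0.64), most. With low DDIT4 alone, 2 arrays at 8 h and 4 at 24 h, the median was 0.13 and 34 of 35 genes lay above 0. Leaving out single arrays kept the median between 0.16 and 0.25, with 35 genes above 0 each time. Of the endothelial markers, 4 of 5 lay below 0, with a median of -0.18 and 3 at an unadjusted p under 0.05, TEK (-0.24, SE 0.09), VWF (-0.18, SE 0.08) and KDR, a receptor of vascular growth factor (-0.19, SE 0.08), with limma adjusted p of at least 0.42852. The endothelial mean was 5.77 to 6.16 at 8 h and 5.66 to 6.04 at 24 h, again below every array median. Below 0 lay 4 of 7 fibroblast, 6 of 9 hepatocyte and 2 of 5 leukocyte markers, none at an unadjusted p under 0.05. Their part in this difference was not tested either.

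Between 4 and 24 h in DMSO, the median difference was 0.07 and 31 of 35 genes lay above 0, where 44.9% of all genes lay below. No gene had an unadjusted p under 0.05, against 1.7% of all genes, and none passed the adjusted test (limma, smallest adjusted p = 0.9999, background 0.0%). NEK2 differed by 0.13, BUB1 by 0.11, MKI67 by 0.10 and CEP55 by 0.12. Without DMSO replicate 4 at 4 h the median was -0.01 with 15 genes above 0, and with low DDIT4 alone it was -0.07 with 1. No gene was lower, or higher, in all arrays at 24 h than in all at 4 h, against 0.246% and 0.399% of all genes.

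Whether the silymarin difference changed with time was tested directly. For 24 h minus 4 h the median was -0.20, with all 35 genes below 0 and 2 at an unadjusted p under 0.05, CDKN3 (-0.34, SE 0.15) and NEK2 (-0.27, SE 0.13), against 3.02% of all genes. For 8 h minus 4 h it was -0.11, and CENPF alone had an unadjusted p under 0.05 (-0.26, SE 0.13), against 2.37%. For 24 h minus 8 h it was -0.08, with CDKN3 alone (-0.32, SE 0.15), against 4.08%. No mitotic gene passed these tests after adjustment (limma, smallest adjusted p = 0.9503), and 0.0% of all genes did. Neither these tests nor the F-test below were repeated with the arrays of low DDIT4 alone. On those arrays the median silymarin difference was -0.05 at 4 h and -0.03 at 24 h. In an F-test over the 6 groups, 9 of 35 genes had an unadjusted p under 0.05, against 7.2% of all genes, and none passed, with 0.0% of all genes passing. NEK2 had the smallest p, 0.00359, and an adjusted p of 0.67431.

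Between the arrays of high and low DDIT4, the mitotic genes lay lower where DDIT4 was high. These sets of arrays come from a measured value, so the differences are given without a test. The average deviation ran from -0.39 to 0.06 with a median of -0.13 on the 10 arrays above 9.0, and from -0.07 to 0.27 with a median of 0.10 on the 14 below. For 34 of 35 genes the median was lower on the arrays above 9.0, as for 54.7% of all genes, and for 31 of 35 it was lower by at least 0.1, as for 18.4% of all genes. HMMR was the exception, higher by 0.04. The median of the 35 differences was -0.25, against -0.01 for all genes.

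Of the 35 listed genes, PLK1 alone had no overlap. It ran from 11.20 to 11.63 on the arrays above 9.0 and from 11.70 to 12.00 on those below, a separation found for 66 of 18274 genes, or 0.361%. Outside the 35, these included KIF18B of the further spindle genes, CDC27 and FBXO5 of the anaphase promoting complex list, and UHRF1 of the replication list. KIF18B ran from 9.23 to 9.60 above 9.0 and from 9.61 to 9.90 below. These further genes were named after their values were seen. KIF14 had the largest difference of medians, -0.56, with 8.77 to 9.41 against 9.10 to 9.89. AURKA followed at -0.46, with 10.54 to 11.05 against 10.92 to 11.29, and TTK at -0.36. For 9 of the 35 genes, at least 8 of the 10 arrays above 9.0 were lower than every array below it, as for 1.96% of all genes, and they were PLK1, AURKA, BUB1B, KIF2C, KIF20A, PRC1, CEP55, CDC20 and UBE2C. CDC20, the least variable gene, ran from 11.92 to 12.09 against 12.06 to 12.26. TOP2A, CDC25C and CENPF differed little, by -0.08, -0.07 and -0.10.

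**Figure D5:**
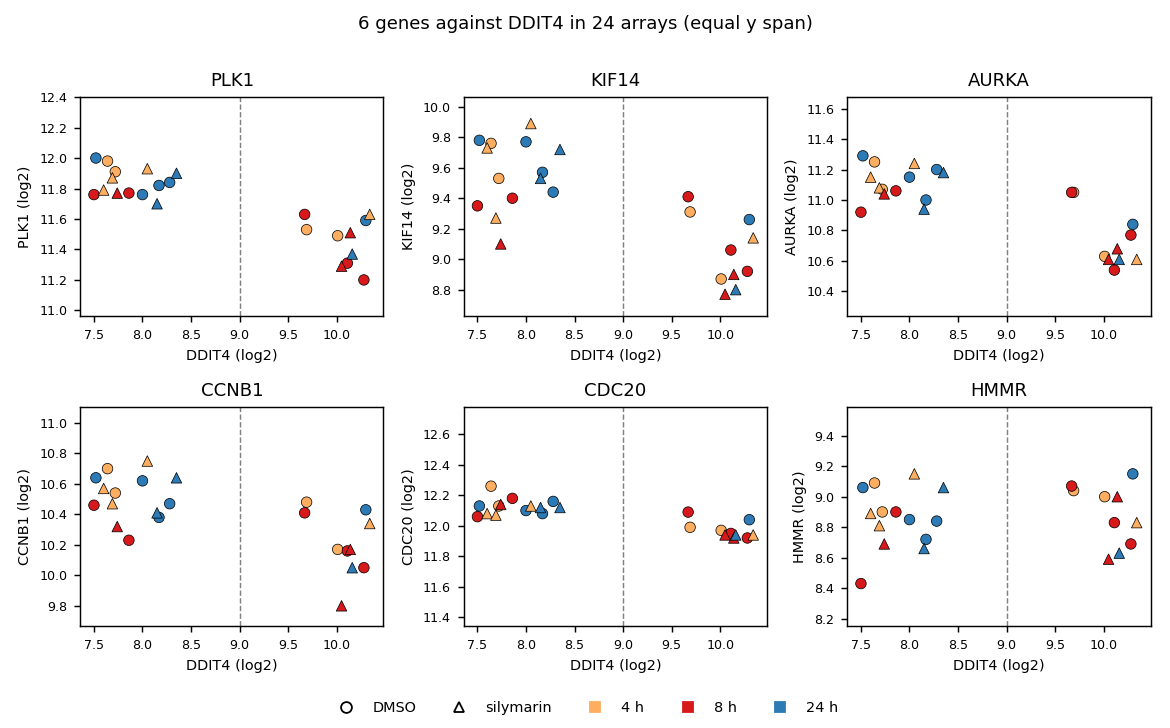
Log2 level of 6 mitotic genes (vertical axes, equal span) against DDIT4 (log2, horizontal axes) in 24 arrays, circles for DMSO and triangles for silymarin, coloured by time, with a dashed line at 9.0. PLK1 does not overlap between the sides, KIF14 and AURKA differ most in median, CDC20 moves over a narrow range, and HMMR is spread alike on both sides.

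Time and DDIT4 were not balanced, so the average deviation was read within each time. At 4 h it was -0.17 to -0.01 on 3 arrays above 9.0 and 0.07 to 0.27 on 5 below. At 8 h it was -0.39 to 0.02 on 5 arrays above and -0.07 to -0.01 on 3 below, so the sides overlapped, with DMSO replicate 1 the highest of all 8 arrays. At 24 h the 2 arrays above 9.0 had -0.30 (silymarin replicate 1) and 0.06 (DMSO replicate 3), and the 6 below had -0.002 to 0.24. Arrays of high DDIT4 thus included 2 above the mean, DMSO replicate 1 at 8 h and DMSO replicate 3 at 24 h. Among arrays of low DDIT4, all 3 at 8 h lay below all 5 at 4 h.

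Other genes moved with DDIT4 as well. ASNS, asparagine synthetase, was 10.49 to 11.26 on the arrays above 9.0 and 9.33 to 10.13 below, and CHAC1, which degrades glutathione, was 10.34 to 11.22 and 8.13 to 9.35. CXCL10, a chemokine, was 4.57 to 7.98 and 7.45 to 9.51. Its 3 lowest arrays, DMSO replicate 4 and replicate 1 at 8 h (4.57 and 5.11) and DMSO replicate 1 at 4 h (5.87), had average mitotic deviations of -0.31, 0.02 and -0.01. CDKN1A, the p21 inhibitor of cyclin kinases, was 6.98 to 7.22 and 6.83 to 7.13, so the ranges overlapped. Its highest array was also the lowest for the mitotic genes, silymarin replicate 3 at 8 h. The next, DMSO replicate 5 at 24 h (7.13), had an average mitotic deviation of 0.09. Over the 24 arrays CDKN1A had r = -0.52 with that average. Its mean was 7.02 and its SD 0.09, where the median SD of all genes was 0.13. The part of these genes in the mitotic levels was not tested.

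Markers of other cell types were read beside this difference. Fibroblast markers had the lower median above 9.0 in 6 of 7 genes, endothelial in 3 of 5, leukocyte in 3 of 5 measured of 6, and hepatocyte in 1 of 9. Of all genes, 54.7% had the lower median there. The medians of these differences were -0.02, -0.0, -0.02 and 0.03, against -0.01 for all genes. The mean of the fibroblast list was 6.05 to 6.20 on arrays above 9.0 and 6.06 to 6.36 below, that of the endothelial list 5.66 to 6.06 and 5.76 to 6.16, that of the leukocyte list 6.17 to 6.46 and 6.18 to 6.42, and that of the hepatocyte list 12.37 to 12.46 and 12.34 to 12.44. The fibroblast, endothelial and leukocyte means were all below the lowest array median, 7.04. PDGFRA, a growth factor receptor of fibroblasts, had the largest difference, -0.52, PDGFRB had -0.26, and PECAM1, an endothelial adhesion protein, -0.39. The other fibroblast markers differed by -0.02 (COL1A1 and COL1A2), -0.0 (COL3A1 and DCN) and 0.08 (LUM). The other endothelial markers differed by -0.0 (CDH5), -0.01 (KDR), 0.05 (VWF) and 0.06 (TEK). PTPRC, the leukocyte phosphatase CD45, was 4.13 to 4.41 and 4.06 to 4.65. Their part in the result was not tested. In the other comparisons between groups, 1 marker had an unadjusted p under 0.05 for silymarin at 8 h, the hepatocyte protein AHSG (0.19, SE 0.08), and 1 for DMSO at 8 h against 4 h, the collagen gene COL1A1 (0.15, SE 0.06). Endothelial markers lay below 0 in 5 of 5 genes for silymarin at 4 h and in 4 of 5 at 8 h, and above 0 in 4 of 5 for DMSO at 8 h against 4 h and 2 of 5 at 24 h against 4 h. The markers named here were chosen after their values were seen.

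Most genes of the same pathways outside the list also lay lower where DDIT4 was high. The median was lower above 9.0 for 21 of 21 further chromosome structure genes, 19 of 20 further spindle and cytokinesis genes, 20 of 27 kinetochore genes and 13 of 15 genes of the anaphase promoting complex. It was lower for 15 of 21 entry regulators and transcription factors and 35 of 37 genes of the G1/S transition and DNA replication. Of all genes, 54.7% had the lower median above 9.0. Of 15 cell cycle inhibitors, 6 were lower and 9 higher. The medians of these differences were -0.17, -0.21, -0.11, -0.09, -0.09, -0.15 and 0.03, beside -0.25 for the mitotic genes and -0.01 for all genes. Single inhibitors differed from -0.15 (CDKN2A and SFN) to 0.35 (GADD45A). GADD45A was 8.23 to 8.9 on the arrays above 9.0 and 7.91 to 8.27 below. GADD45B differed by 0.24, with 8.22 to 9.1 against 8.2 to 8.54. These inhibitors were named after their values were seen, and their part in the mitotic levels was not tested.

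None of the 156 genes of these lists passed the test in any of the comparisons between groups. At 24 h an unadjusted p under 0.05 was found for 4 of 20 spindle genes, 1 of 21 chromosome structure genes and 1 of 27 kinetochore genes, and for 0 of 37 G1/S and replication genes, 0 of 21 entry regulators and 0 of 15 genes of the anaphase promoting complex, against 3.03% of all genes. All 20 spindle genes lay below 0, where 44.0% of all genes did, among them DEPDC1 (-0.39, SE 0.15) and CKAP2 (-0.21, SE 0.08). KNL1, a kinetochore scaffold (-0.20), BUB3, a checkpoint protein (-0.13), CDCA8, a chromosomal passenger protein (-0.22) and CDCA2 (-0.16) also lay below 0. At 8 h it was found for 1 of 37 G1/S and replication genes and 1 of 20 spindle genes and for none of the other lists, against 3.93% of all genes. E2F1, which drives S phase genes, differed by 0.24 (SE 0.08) and CCNE2, an S phase cyclin, by 0.27, while CIT and ASPM, of cytokinesis and of the spindle poles, both differed by -0.25. Of 37 G1/S and replication genes, 28 lay above 0 at 8 h, where 3 of 35 mitotic genes did, and the difference between the lists was not tested. At 4 h none of these genes had an unadjusted p under 0.05. The differences of these further lists were not read again with single arrays left out or with low DDIT4 alone, here or between DMSO groups. For the 35 mitotic genes at 24 h, the median moved from -0.16 to -0.03 without silymarin replicate 1.

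In DMSO at 8 h against 4 h, CENPW (-0.37) and MAD2L1 (-0.27) of the kinetochore, KIF20B (-0.30) and KIF18A (-0.19) of the spindle, ORC6 (-0.20) and CDC45 (-0.21) of replication, and CDC23 (-0.15) and ANAPC1 (-0.13) of the anaphase promoting complex had the smallest p of their lists. An unadjusted p under 0.05 was found for 4 of 37 G1/S and replication genes, 3 of 27 kinetochore genes, 1 of 20 spindle genes and 1 of 15 genes of the anaphase promoting complex, and for 0 of 21 chromosome structure genes and 0 of 21 entry regulators, against 6.5% of all genes. At 24 h against 8 h it was found for 9 of 21 chromosome structure genes, 7 of 20 spindle genes, 7 of 21 entry regulators, 5 of 27 kinetochore genes, 3 of 37 G1/S and replication genes and 1 of 15 genes of the anaphase promoting complex, against 10.9% of all genes. ESPL1, the protease separase, differed by 0.33, SGO2, which guards cohesin, by 0.25, CENPW by 0.35, and SPC24, a kinetochore subunit, by 0.33. KIF20B differed by 0.30, TACC3, a spindle protein, by 0.20, ANAPC10 by 0.21, ANAPC1 by 0.15, CDC45 by 0.21 and RRM1, a ribonucleotide reductase subunit, by 0.19. CDC25B, a CDK1 phosphatase, differed by 0.18 and the transcription factor MYBL2 by 0.21. The inhibitors had medians between -0.04 and 0.02 over the 6 comparisons, with 0 of 15 at an unadjusted p under 0.05.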

How the data were processed

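Total RNA from 24 samples was run on the Affymetrix Human Gene 1.0 ST array, as the labels' protocols state. The values deposited by the authors are log2 intensities from RMA in oligo, according to the submitters' processing notes, with no version. No source used here names a genome build. RMA corrects background, normalizes quantiles and summarises probes, so differences are relative within the whole set. Of 28869 probe sets, 19302 were assigned to 1 gene, 1729 to several and 7838 to none in the annotation, and 19271 gene numbers were in the reference table, which changed 0 symbols. The highest-mean probe set was kept for 757 genes with several, leaving 18274 genes.

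Values were used as deposited in 1 limma 3.58.1 fit (R 4.3.3) of 6 group means over all 24 arrays, with 18 residual and 5.04 prior degrees of freedom. Tests were two-sided with Benjamini-Hochberg adjustment over all genes and a threshold of 0.05. The test was checked on simulated data in which genes varied independently and the added changes were larger than the group differences of the mitotic genes. It therefore does not show how often differences of the size found here would be called.

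The genes, lists and tests were chosen with earlier results of these data known. Named genes were fixed by role, SD over arrays and, per comparison, the 4 mitotic genes with the smallest p and 2 genes of each further list. The text prints those of lists in which a gene had an unadjusted p under 0.05. Alternatives were other scalings, dim genes left out (every group mean under 7.9), probe sets averaged, trend and robust settings, array weights, only the groups compared, a replicate block, an adjusted p of 0.01, each array left out, DDIT4 limits of 8.5 and 9.5, and promoters before the start. Leaving out the arrays with DDIT4 above 9.0 was chosen after seeing the data. Python 3.11.15 and matplotlib 3.10.9 were used for descriptions and figures.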

Additional observations from a re-analysis of the deposited data

Results flagged for a closer look

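In 144 groups of 4 or 5 arrays, over the 35 genes and their average, 4 values stood far from the rest of their group by Dixon's criterion, where chance alone gives about 1 in 20. CDC25C was 9.10 in DMSO replicate 1 at 8 h, where the nearest array of that group was 8.78. PBK was 9.35 in DMSO replicate 4 at 4 h, with the nearest array at 9.78, and TOP2A was 11.78 in that same array, with the nearest at 11.97. CENPF was 11.32 in silymarin replicate 3 at 4 h, with the nearest array at 11.06. DDIT4 on these 3 arrays was 9.67, 10.01 and 8.05.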

How the results depend on the processing

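No mitotic gene passed the adjusted test in any comparison under any setting run. The number of genes of the whole array that passed was 0 in each, with 1 exception. At 24 h, repeated quantile normalization gave 1 gene, RPE65, which is not a mitotic gene (0.41, SE 0.07, limma adjusted p = 0.0434, against 0.065 as deposited); it is named because it was the single call. Without the arrays of DDIT4 above 9.0, named genes with small differences turned direction: CEP55 to -0.02 and CENPF to -0.01 at 4 h, and BUB1, MKI67 and CEP55 to -0.01 each in DMSO at 24 h against 4 h.

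Leaving out single arrays gave medians from -0.03 to 0.11 at 4 h, -0.14 to 0.02 at 8 h and -0.27 to -0.03 at 24 h for silymarin against DMSO. In DMSO they were -0.23 to -0.09 for 8 h against 4 h, -0.01 to 0.13 for 24 h against 4 h and 0.16 to 0.25 for 24 h against 8 h. For the change of the silymarin difference they were -0.31 to -0.06 from 4 to 24 h, -0.20 to -0.01 from 4 to 8 h and -0.19 to 0.04 from 8 to 24 h. The 8 h count above 0 was 6 after re-centring, 9 with array weights, and 9, 9, 7, 1 and 0 without DMSO replicates 1, 2, 3 and 4 and silymarin replicate 1. Replicate numbers were not treated as pairs in the main fit. Of 10 correlations between samples of the same number, 4 were over 0.1 (range -0.14 to 0.43). Samples of different number were not correlated for comparison, so these values cannot tell whether the numbers pair the samples. With the replicate number as a block, medians were 0.04, -0.13 and -0.20 at 4, 8 and 24 h, 1 gene lay above 0 at 8 h, and no call changed. DDIT4 limits of 8.5 and 9.5 gave the same sides. All 35 genes were kept when dim genes were left out.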

Other observations

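Genes outside the list were ranked by their correlation with the average of the 35 mitotic genes over the 24 arrays, which share array, normalization and group. The 10 most alike were NDC80 and ANLN (r = 0.95 each), SHCBP1 and MELK (0.94), CIP2A, CDCA2, ECT2, ARHGAP11A and RACGAP1 (0.93) and COQ3 (0.92). NDC80 holds kinetochores to microtubules, ANLN and RACGAP1 act in the cleavage furrow, ECT2 activates RhoA there, and COQ3 is an enzyme of coenzyme Q synthesis. These 10 genes had r from 0.74 (CIP2A and RACGAP1) to 0.91 (MELK) on the 14 arrays of low DDIT4 and from 0.87 (MELK) to 0.97 (CDCA2) on the 10 of high DDIT4.

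The 10 most opposite were HPN, a membrane protease of hepatocytes (-0.88), JMJD4 (-0.86), SFT2D3 and AMDHD2 (-0.85), SAXO4 and ABCA7 (-0.84), ZNF554, KIAA0319L and TMEM150A (-0.83) and TST, a mitochondrial sulfur transferase (-0.82). Within the sides of DDIT4, these 10 genes had r from -0.85 (HPN) to -0.53 (SFT2D3 and ZNF554) on the 14 arrays of low DDIT4 and from -0.82 (SFT2D3) to -0.54 (KIAA0319L) on the 10 of high DDIT4, where HPN had -0.67. Of 18239 genes, 217 had r over 0.8 and 21 had r under -0.8. Within the further lists, spindle and cytokinesis genes had a median r of 0.85, chromosome structure genes 0.80, kinetochore genes 0.75, entry regulators 0.68, the anaphase promoting complex 0.64 and G1/S and replication genes 0.60. For cell cycle inhibitors it was -0.10, from -0.67 for GADD45G to 0.69 for RBL1, a pocket protein related to the retinoblastoma protein.

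The MuvB subunit LIN37 and the kinetochore protein CENPP had the lowest r of their lists. LIN37 had r = -0.60 and a median 0.22 higher on arrays of high DDIT4, while FOXM1, the factor of late cell cycle genes, had r = 0.89 and ran from 10.50 to 10.98 on the arrays above 9.0 and 10.89 to 11.10 below. The other MuvB subunits of that list, LIN9, LIN54 and LIN52, had r = 0.74, 0.22 and 0.12. Their medians on arrays of high DDIT4 differed by -0.17, 0.11 and -0.01. CENPP had r = -0.41. All genes of this paragraph were chosen after their values were seen.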
